A study of Mus musculus with 6 samples.

Results

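Aminergic receptors are the receptors for dopamine, serotonin, adrenaline and noradrenaline, acetylcholine (the muscarinic type) and histamine. Amisulpride is used against psychosis and acts in the brain as an antagonist of members of this class, chiefly DRD2, DRD3 and HTR7. The receptors were taken by gene symbol from the table of all genes, and 37 of 49548 genes matched: 14 serotonin, 9 adrenergic, 5 dopamine, 5 muscarinic and 4 histamine receptors. The question was which of them synovial fibroblasts (SFs) transcribe at all, and whether any changed when the cells were given the drug.

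The SFs, the connective tissue cells of the joint lining, came from ankle joints of mice that carry a human TNF transgene (hTNFtg) and develop arthritis. All 6 libraries share this genotype. They fall into 3 untreated libraries and 3 from cells that received Amisulpride at 500 μM for 48 hours. Per the study's methods the mice were 8 weeks old on a mixed CBA and C57BL/6J background, CD45+ (blood-derived) cells were removed at the first passage, the replicates were biological, and the control cells received vehicle, where the labels speak of no treatment. There was no wild-type library in the comparison, so it bears on arthritic SFs alone.

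Most aminergic receptors are G protein-coupled. The beta adrenergic receptor genes, Drd1, Drd5, Htr4, Htr6, Htr7 and Hrh2 encode receptors that couple to Gs and raise cAMP. The alpha-2 adrenergic receptors, Drd2 to Drd4, the Htr1 group, Chrm2, Chrm4, Hrh3 and Hrh4 encode receptors that couple to Gi/o and lower it, while the alpha-1 adrenergic receptors, the Htr2 group, Chrm1, Chrm3, Chrm5 and Hrh1 act through Gq and phospholipase C beta. Htr3a and Htr3b are the exceptions, since they encode subunits of an ion channel.

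Values are normalised counts, which the authors obtained by scaling each library's reads per gene and rounding to whole numbers. The libraries held approximately 2.52 to 4.71 M reads, and 1 read was worth 0.834 to 1.79 normalised counts. Untreated replicate 1, at about 4.0 M reads, has the least certain depth. A receptor is called detected where it stood above 3 reads, the number that a count of 0 still allows, in at least 1 library. That floor corresponded to 0.637 to 1.19 reads per M, and it covers counting error only. The cells expressed all 10 fibroblast markers examined, and 15 of 15 housekeeping genes stood above 0 in every library, the lowest value being 25.

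SFs held transcripts of few aminergic receptors. Detected receptors numbered 8 of 37 (21.6%), against 60.4% of protein-coding genes and 33.3% of all genes. Among them were Adra2a, Adra1b, Adra1d, Adrb3, Htr1b, Htr7 and Drd4. Only 4 of the 37 (10.8%) reached at least 10 normalised counts in at least 3 libraries, the level required for testing, which 50.3% of protein-coding genes reached. Another 11 receptors had a value above 0 but never passed the floor, and 18 (48.6%) stood at 0 in all 6 libraries, against 29.0% of protein-coding genes. For 10 of those 18 (Chrm1, Chrm4, Chrm5, Drd3, Hrh4, Htr1a, Htr2c, Htr3a, Htr3b and Htr5b) the authors' length-scaled value was blank as well, as it was for 20117 genes of the table, and whether such a gene had no reads or was not counted cannot be told apart.

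**Figure D1:**
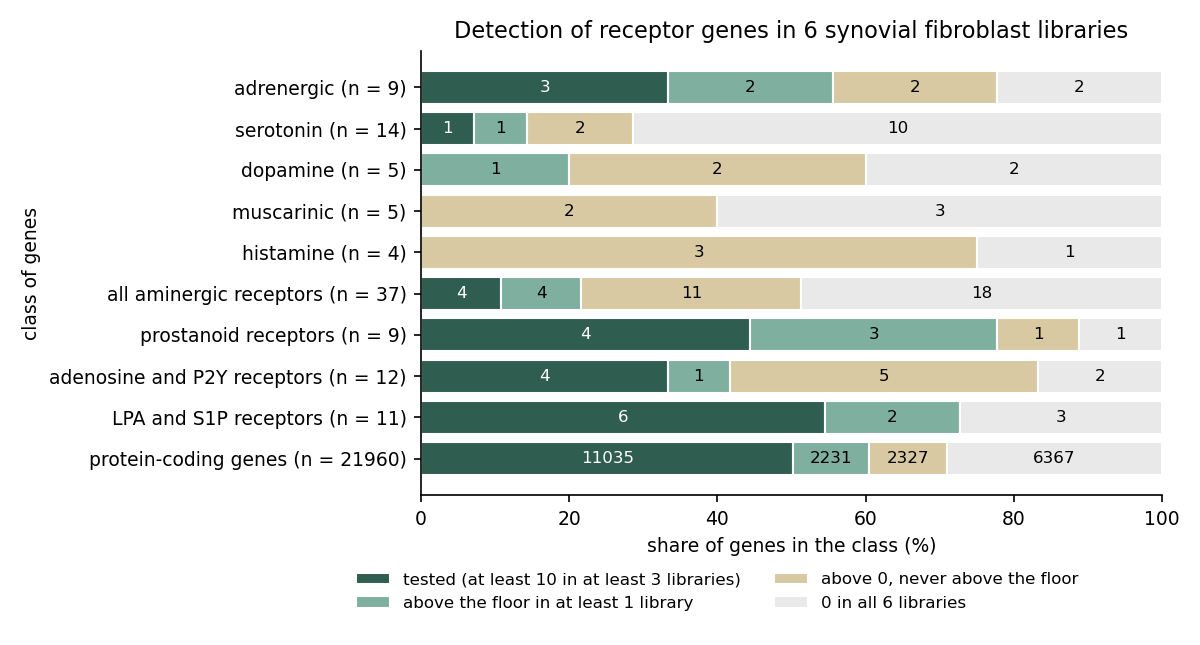
Share of genes (x axis, %) in each of 4 detection classes, for the 5 aminergic receptor families, all 37 aminergic receptors, 3 groups of lipid and nucleotide receptors and all protein-coding genes (y axis); numbers in the bars are genes. Among the 5 aminergic families, adrenergic receptors reach furthest into the dark green, with 3 tested and 2 more above the floor, while muscarinic and histamine receptors have no green at all.

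The families differed in how many members were detected, namely 5 of 9 adrenergic, 2 of 14 serotonin, 1 of 5 dopamine, 0 of 5 muscarinic and 0 of 4 histamine receptors. Receptors for other local mediators made up a larger detected share. Of 32 receptors for lipid mediators and nucleotides 20 were detected (62.5%), made up of 7 of 9 prostanoid, 5 of 12 adenosine and P2Y, and 8 of 11 LPA and S1P receptors. Lpar1, which binds lysophosphatidic acid, stood at 555 to 1204 normalised counts and Ptgfr, the prostaglandin F receptor, at 54 to 192. These shares are descriptions of the lists and their difference was not tested.

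A single coding segment, the intronless form typical of many aminergic receptor genes, was annotated for 3 of 8 detected and 14 of 29 other receptors, and the median GC content of the gene was 48.6% and 48.1% in the same order. Spans ran from 2143 to 126605 bases in the detected and from 1440 to 485359 bases in the other receptors.

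Adra2a, which encodes the alpha-2A adrenergic receptor, was the most abundant aminergic receptor of untreated SFs and the only tested one past a threshold, being lower after amisulpride. It lies on the plus strand of chromosome 19 (mm10, chr19:54045182-54048982), with its coding sequence in 1 exon, and no other gene overlaps it or lies within 1251 bases. Untreated replicates 1, 2 and 3 held 124, 98 and 75 normalised counts. The treated replicates held 33, 37 and 14. The groups did not overlap, the highest treated value lying well under the lowest untreated one. In approximate reads, the untreated libraries held 90 to 125 and the treated ones 8 to 37, so that the third treated library, also the shallowest, rests on few reads. Per kilobase of the authors' gene lengths, Adra2a averaged 26.8 normalised counts over the 6 libraries, Adra1b 16.6, Adra1d 14 and Htr1b 3.52. These were 3′ libraries, in which reads need not rise with gene length, so the scaled values may not rank abundance.

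The mean fell 3.54-fold, from 99.0 ± 24.5 to 28.0 ± 12.3 (SD, n = 3 libraries each). On the log2(normalised count + 1) scale the change was -1.87 ± 0.397 (SE), with a 95% interval of -2.74 to -0.996. The unadjusted limma p was 0.000599 (the 99th lowest of 12614 genes) and the Benjamini-Hochberg adjusted p was 0.0764. Adra2a thus passed the thresholds that the study used, a log2 change of 1 or more in either direction together with an unadjusted p below 0.05, and missed an adjusted p of 0.05. With the replicate number as a block the adjusted limma p was 0.00594, and with weights per library it was 0.0365. Within each replicate number the treated value was the lower one, by -1.88, -1.38 and -2.34 on the log2 scale. In bulk RNA, fewer cells that carry a transcript and less of it per cell cannot be told apart.

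Of the 4 receptors tested, 1 passed the study thresholds, and it fell. Across all 12614 genes tested, 5.70% passed them and 3.01% did so with lower values under amisulpride. An unadjusted p under 0.05 was likewise reached by 1 of the 4 receptors, with a lower value, and by 10.9% of all genes, 5.77% with lower values. An adjusted p under 0.05 was reached by 0 of 4 receptors and by 0.285% of all genes (36 genes, or 263 with the replicate block, which then included Adra2a). Groups that did not overlap were seen in 1 of the 4 receptors and in 16.5% of all genes.

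**Figure D2:**
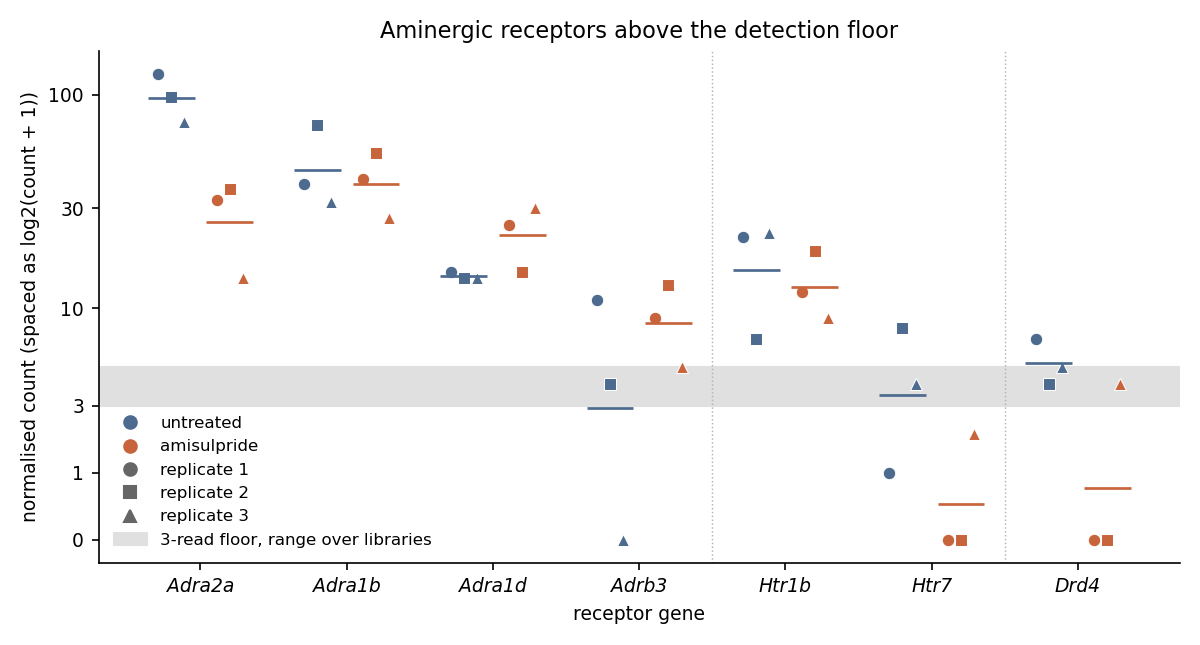
Normalised count of 7 of the 8 detected receptors (x axis; y axis spaced as log2(count + 1)) in 3 untreated (blue) and 3 amisulpride (orange) libraries; point shapes mark the replicate number, horizontal lines are group means on the log2 scale and the grey band is the range of the 3-read floor over the libraries. The 3 untreated Adra2a points, at 75 to 124, all lie above the 3 treated ones, at 14 to 37, and the groups of the other receptors overlap or lie close to the floor.

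Of the alpha-1 genes, Adra1b and Adra1d stood above the floor in every library. Adra1b (chr11:43774606-43901210, minus strand), which encodes the Gq-coupled alpha-1B receptor, held 39, 73 and 32 normalised counts in untreated and 41, 54 and 27 in treated replicates 1 to 3. The groups overlapped, with replicate 2 the highest in both. Its log2 fold change was -0.20 ± 0.399 (SE), with an interval of -1.07 to 0.676 and a limma p of 0.628 (adjusted 0.886).

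Adra1d (chr2:131545850-131562283, minus strand) encodes the alpha-1D receptor. Untreated replicates held 15, 14 and 14 normalised counts and treated ones 25, 15 and 30. The treated values reached higher, but the lowest of them equalled the highest untreated value. The log2 fold change was 0.61 ± 0.428 (SE), with an interval of -0.325 to 1.55 and a limma p of 0.178 (adjusted 0.646). An antisense gene, Gm14285, overlaps Adra1d and stood at 2 to 12. The strand setting of the counting was not given in the sources used here, so reads from the 2 genes cannot be told apart. Adra1a, the third alpha-1 gene, showed 2 normalised counts in untreated replicate 1 and 0 elsewhere.

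The other alpha-2 genes, Adra2b and Adra2c, stood at 0 in all 6 libraries. Among the beta receptors, which raise cAMP, Adrb3 held 11, 4 and 0 normalised counts in untreated and 9, 13 and 5 in treated replicates. It passed the floor in 2 of 3 libraries of each group and did not reach the level for testing. Adrb1 showed a single count in treated replicate 2. Summed over the 9 genes, adrenergic transcripts came to 198, 194 and 125 in untreated and 120, 120 and 81 in treated libraries. Without Adra2a, the sum over all other 36 aminergic receptors was 86 to 116 in untreated and 90 to 108 in treated libraries, so the ranges overlapped. Adra2a alone made up 45.8% to 53.9% of aminergic receptor counts in untreated and 13.5% to 25.7% in treated SFs.

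Serotonin receptors were represented by 2 genes. Htr1b (chr9:81628291-81633828, minus strand), which encodes a Gi/o-coupled receptor, held 22, 7 and 23 normalised counts in untreated and 12, 19 and 9 in treated replicates. The values interleaved, with a log2 fold change of -0.26 ± 0.559 (SE), an interval of -1.48 to 0.971 and a limma p of 0.657 (adjusted 0.897). An antisense gene, D430036J16Rik, overlaps it and reached 3 normalised counts in 1 library.

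Htr7, an amisulpride target that couples to Gs, held 1, 8 and 4 normalised counts in untreated and 0, 0 and 2 in treated replicates. It was above the floor in 2 of 3 untreated libraries and in none of the treated ones. The treated libraries held at most about 1 read, too few for a fold change, and its highest count was about 8 reads in untreated replicate 2. Of the 12 remaining serotonin receptors, Htr2b reached 1 and 2 normalised counts in 1 library of each group and Htr5a reached 1 in untreated replicate 1. Htr2b overlaps Psmd1, a proteasome subunit gene on the opposite strand with 178 to 365 normalised counts, so even these few reads may belong to either gene. The other 10, Htr1a, Htr1d, Htr1f, Htr2a, Htr2c, Htr3a, Htr3b, Htr4, Htr5b and Htr6, stood at 0 throughout.

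Among the dopamine receptors, the primary targets of the drug, Drd3 and Drd5 stood at 0 in all 6 libraries. Drd2 held 2 normalised counts, about 2 reads, in treated replicate 1 and 0 in the other 5. Drd1 held 1 in untreated replicate 3 and 0 elsewhere. In a single library a listed 0 allows up to 3 reads, or 0.637 to 1.19 reads per M, so transcripts rarer than this could be missed there. Drd3 also had a blank length-scaled value, so it may not have been counted, and its 0 then sets no such bound.

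Drd4, which encodes a Gi/o-coupled dopamine receptor, was the 1 member of its family to pass the floor. Untreated replicates held 7, 4 and 5 normalised counts and treated ones 0, 0 and 4. All 3 untreated libraries passed the floor and no treated library did, the treated value of 4 corresponding to about 2 reads. The values are too low for the test and the groups share the value 4. Deaf1, on the opposite strand with 14 to 70 normalised counts, lies 716 bases from Drd4, and the lengths behind the authors' scaled values reach past the annotated 3′ ends of many genes, so some of these reads may belong to Deaf1.

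Muscarinic and histamine receptors did not pass the floor in any library. Chrm2 was the most regular of them, with 1, 1 and 1 normalised counts in untreated and 3, 1 and 2 in treated replicates. A noncoding RNA gene on the opposite strand, 9330158H04Rik, overlaps Chrm2 and stood at 1 to 5, so these reads may belong to either gene. Chrm3 held 3 in treated replicate 2. Hrh1, the receptor behind the vascular effects of histamine, held 1 in untreated replicate 3 and 1 and 4 in treated replicates 2 and 3. Hrh3 held 3 and Hrh2 held 1, each in treated replicate 1. Chrm1, Chrm4, Chrm5 and Hrh4 stood at 0. Each of these receptor values corresponds to at most about 3 reads.

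The machinery downstream of aminergic receptors was, in contrast, transcribed. In the list of 49 signalling genes 44 were detected and 34 tested. The Gs alpha subunit Gnas stood at 1315 to 2759 normalised counts, the Gi subunit Gnai2 at 893 to 1229 and Gnai3 at 280 to 571, and none of the 3 passed a threshold. Of the 48 tested genes of the pathway lists, 5 passed the study thresholds, 2 with higher and 3 with lower values, against 5.70% of all genes. An unadjusted limma p under 0.05 was reached by 6 of the 48 and by 10.9% of all genes. An adjusted one was reached by 0 of the 48 and by 0.285% of all genes. With the replicate block it was reached by 2 of the 48 and by 263 of 12614 genes. The median log2 fold change of the 48 was -0.04, beside 0.002 over all tested genes.

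Prkar1b, a regulatory subunit of the cAMP-dependent protein kinase, held 41, 28 and 25 normalised counts in untreated and 14, 3 and 5 in treated replicates, without overlap. Its log2 fold change was -2.15 ± 0.562 (SE), with a limma p of 0.00264, an adjusted p of 0.154 and, with the replicate block, an adjusted p of 0.0341. The more abundant subunit genes Prkar1a (2037 to 3951), Prkaca (311 to 474) and Prkacb (142 to 292) did not pass. Of the adenylyl cyclases, which make cAMP, Adcy7 held 98, 113 and 109 against 42, 60 and 64, or -0.96 ± 0.283 (SE) on the log2 scale, at a limma p of 0.00593 (adjusted 0.213), which falls just short of the fold threshold. Adcy6 and Adcy3 stood at 111 to 227 and 57 to 115 with overlapping groups.

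In the Gq branch, 2 of 3 tested phospholipase C beta genes passed the study thresholds, in opposite directions, against 5.70% of all genes tested. Plcb3 held 41, 30 and 33 normalised counts in untreated and 13, 11 and 13 in treated replicates, or -1.41 ± 0.382 (SE) on the log2 scale, at a limma p of 0.00338 (adjusted 0.173). Plcb4 held 25, 32 and 20 against 28, 47 and 131, at 1.12 ± 0.501 (SE) with a limma p of 0.047 (adjusted 0.454). The Plcb4 difference was carried by treated replicate 3, without which it was 0.51, and leaving out any single library other than treated replicate 1 ended the call. Plcb1 stood at 24 to 44.

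Gnao1, the alpha subunit of Go, held 20, 7 and 3 normalised counts in untreated and 22, 17 and 29 in treated replicates, overlapping groups with a log2 fold change of 1.40 ± 0.618 (SE) and a limma p of 0.0438 (adjusted 0.441). The call ended without untreated replicate 2 (1.34), untreated replicate 3 (0.84), treated replicate 1 (1.41) or treated replicate 3 (1.22), and without untreated replicate 1 the value was 2.03. Of 7 tested cAMP phosphodiesterases, led by Pde7a at 152 to 186 normalised counts, 0 had an unadjusted limma p under 0.05, and the same held for 5 arrestins and receptor kinases, led by Grk2 at 121 to 257. Across all genes tested, 10.9% had one. CREB-responsive genes, which cAMP induces in many cells, counted 9 tested, 7 higher and 2 lower in the treated SFs. Their median log2 fold change was 0.28, and 50.1% of all tested genes were higher. Without untreated replicate 3 the 9 genes were 4 higher and 5 lower, with a median of -0.006. With all libraries, 0 of the 9 had an unadjusted limma p under 0.05. With the replicate block 1 of the 9 had one, against 14.6% of all genes tested. It was Fos, at 93, 63 and 23 normalised counts in untreated and 121, 96 and 73 in treated replicates (log2 fold change 0.87, unadjusted limma p 0.0158, adjusted 0.201). The most abundant CREB-responsive genes were Cited2 (408 to 809), Dusp1 (231 to 782) and Id2 (73 to 154).

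**Figure D3:**
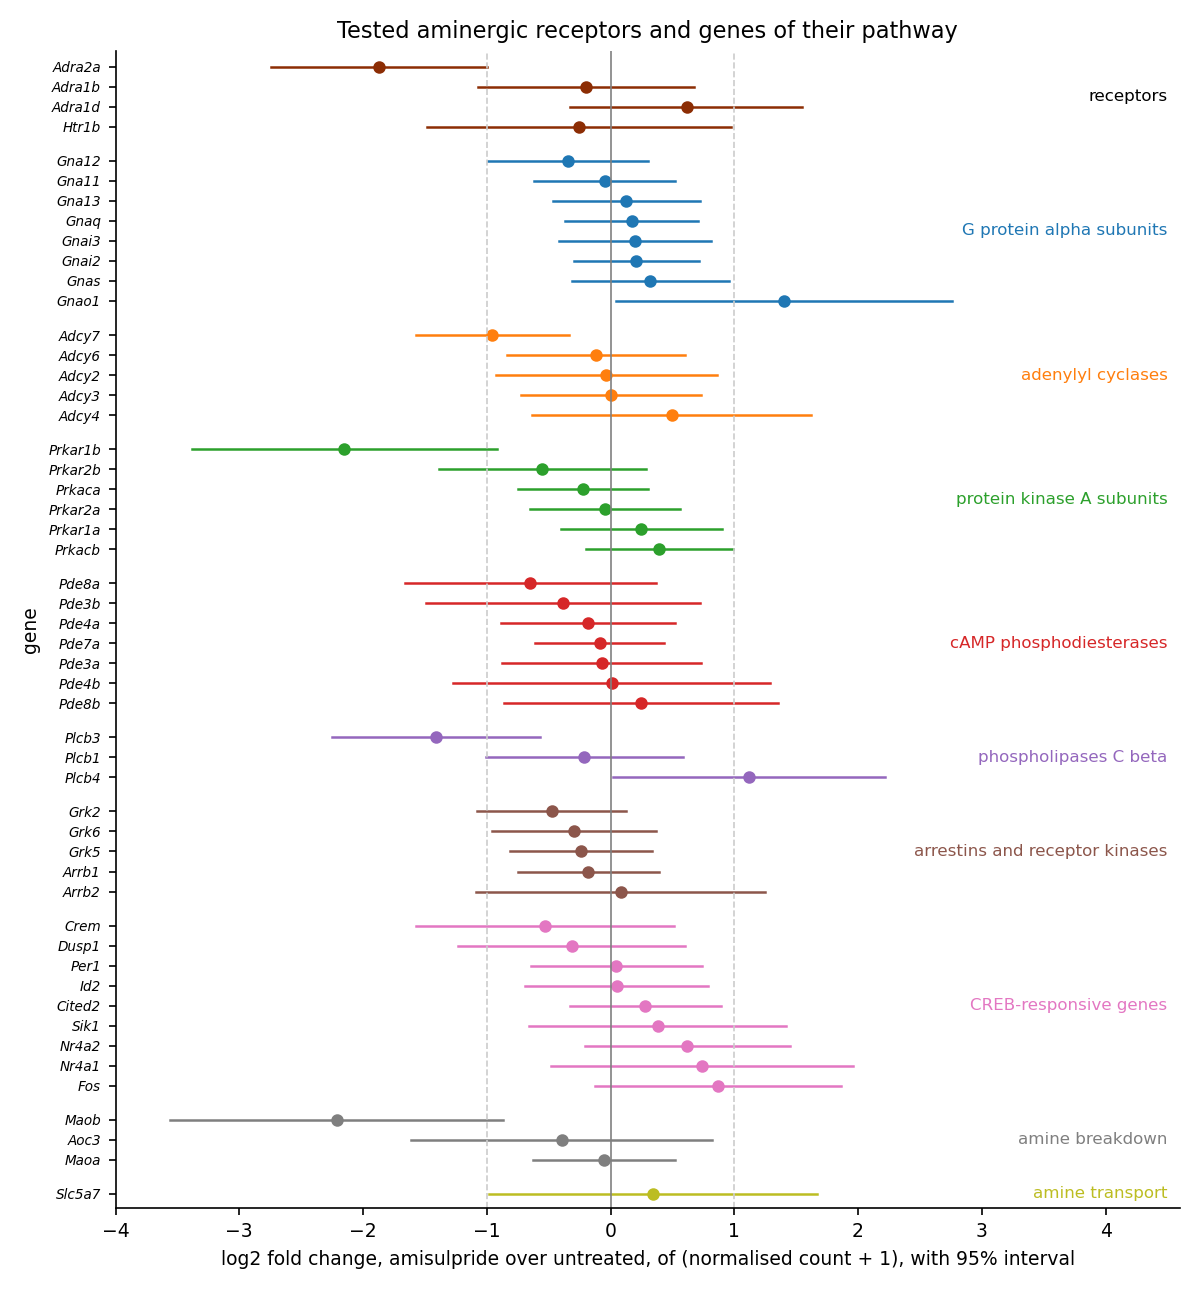
Log2 fold change of (normalised count + 1), amisulpride over untreated (x axis), with 95% limma intervals for the 4 tested receptors and 47 of the 48 tested genes of the pathway lists (y axis, grouped by role); dashed lines mark -1 and 1. Adra2a at -1.87 lies left of the dashed line, the other 3 receptors have intervals across 0, and Prkar1b, Plcb3 and Maob are the pathway genes past the left dashed line.

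Genes that make and clear amines were thinly represented. Of 8 synthesis genes 0 were tested, with Ddc, the decarboxylase of the dopamine and serotonin routes, at 3, 3 and 8 in untreated and 13, 3 and 32 in treated replicates, and Hdc, which makes histamine, at 0 to 9. Among the enzymes of breakdown, Maoa stood at 88 to 121 with a log2 fold change of -0.05 (limma p 0.843, adjusted 0.959). Maob, which like Maoa encodes a monoamine oxidase, held 46, 108 and 74 normalised counts in untreated and 7, 47 and 9 in treated replicates. The groups overlap only through treated replicate 2. On the log2 scale Maob fell by 2.21 ± 0.615 (SE), at a limma p of 0.00398 and an adjusted p of 0.184, or 0.00661 with the replicate block. Without treated replicate 2 it was -3.02.

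Transporters were low throughout. Slc6a4, the serotonin transporter, held 6, 4 and 10 normalised counts in untreated and 1, 0 and 0 in treated replicates, groups that did not overlap but that were too low for the test. Slc6a2, the noradrenaline transporter, stood at 1 to 5, and the choline transporter Slc5a7, the 1 tested member, at 6 to 23 with a log2 fold change of 0.35 (limma p 0.578). Of the 16 nicotinic acetylcholine receptor subunits, the channel counterparts of the muscarinic receptors, 2 were detected and 0 were tested, Chrnb1 standing at 1 to 9, Chrnb4 at 0 to 4 and Chrna1 at 1 to 4.

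Markers of other cell types were read in the same libraries, since several of these cells carry aminergic receptors. The 7 mural cell markers (pericytes and smooth muscle) summed to 5378 to 9783 normalised counts in untreated and 1445 to 4824 in treated libraries, and 6 of 7 were detected. Nearly all of this was Acta2, and the other 6 markers summed to 253 to 399 against 192 to 274, overlapping ranges. Mcam, among them, fell by 1.37 on the log2 scale (limma p 0.000576, adjusted 0.0764), and Acta2, which activated fibroblasts also express, fell by 1.43 (limma p 0.00674, adjusted 0.225). With the replicate block their adjusted p-values were 0.0191 and 0.0142. Notch3 stood at 50 to 175 and Cspg4 at 31 to 93 with overlapping groups, and Des was low at 0 to 9. The 6 adipocyte markers summed to 308 to 328 against 134 to 252, nearly all of it Fabp4 (303, 309 and 324 against 128, 187 and 229), while Adipoq, Cidec and Lep stood at 0. Pparg, the other detected one, ran the other way, at 5, 1 and 4 against 6, 11 and 23, and without Fabp4 the markers summed to 3 to 5 against 6 to 23. Schwann cell markers, 6 of 6 detected, summed to 79 to 90 against 60 to 78, with Mbp at 30 to 53 against 16 to 24 and S100b at 8 to 31. Acta2, Mcam, Fabp4 and the Schwann cell sum were thus lower where Adra2a was lower, and their part in the Adra2a result was not tested.

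Myeloid markers were present in spite of the CD45 depletion, 10 of 10 being detected. Their sum was 2382 to 4020 in untreated and 2123 to 4063 in treated libraries, most of it Lyz2 (1394 to 3287), with Cd68 at 119 to 256 and Tyrobp at 74 to 190, and 8 of the 10 had a negative log2 fold change, as 49.9% of all tested genes did. The study thresholds were passed by 2 of the 10, both lower, namely Csf1r (-1.01, limma p 0.0486, adjusted 0.456) and Cd14 (-1.74, limma p 0.00223, adjusted 0.144), against 5.70% of all genes. With the replicate block the adjusted limma p of Cd14 was 0.012. Cx3cr1 (-1.10, unadjusted limma p 0.0113) and Ptprc (-1.16), which encodes CD45, then passed the study thresholds as well, against 6.61% of all genes. Ptprc held 38, 12 and 18 normalised counts in untreated and 23, 5 and 5 in treated replicates. The 2 markers with a positive log2 fold change were Cd68 (0.31, limma p 0.375) and Adgre1 (0.83, limma p 0.0784). Adgre1 held 39, 25 and 14 against 59, 43 and 32. With the replicate block its unadjusted limma p was 0.036 (adjusted 0.297). The part of these genes in the Adra2a result was not tested either. Markers of mast cells summed to 0 to 3 (Cma1 at 0 to 3, Mcpt4 and Kit at 0 to 1), and 6 of 6 lymphocyte markers, among them Cd3e, Cd3g and Cd79a, stood at 0. Neuronal markers were split, with Snap25, Rbfox3, Nefl and Elavl3 at 0 and Stmn2 (5 to 335), Tubb3 (68 to 235) and Syt1 (0 to 4) present. Stmn2 held 160, 92 and 5 in untreated and 288, 335 and 13 in treated replicates, and Tubb3 130, 68 and 123 against 235, 96 and 138. Both were higher in the treated library of each replicate number (log2 fold changes 1.31 and 0.50, limma p 0.326 and 0.203). With the replicate block Stmn2 passed the study thresholds. Endothelial markers summed to 4 to 14 against 2 to 17, with Tek at 1 to 12, Vwf at 0 to 5 and Emcn at 0 to 10.

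The direction and the study thresholds held for Adra2a in 15 of 15 other ways of processing the data, with log2 fold changes between -2.12 and -1.45. The unadjusted limma p was at most 0.00542 in these, and the adjusted p ran from 0.00594 to 0.336.

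**Figure D4:**
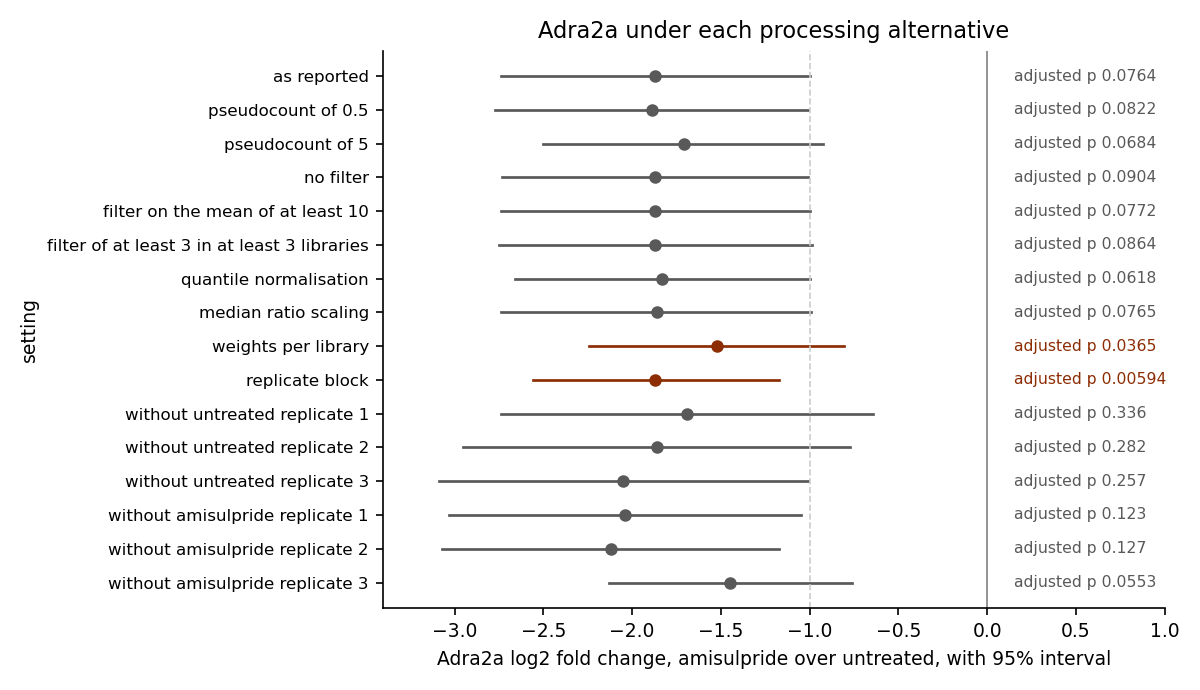
Adra2a log2 fold change, amisulpride over untreated (x axis), with its 95% limma interval as reported and under 15 alternatives (y axis); the Benjamini-Hochberg adjusted p is printed at the right and values under 0.05 are red. Every point lies left of the dashed line at -1, and 2 settings, weights per library and the replicate block, have an adjusted p under 0.05.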

How the data were processed

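3′ mRNA libraries (QuantSeq) of 3 untreated and 3 amisulpride-treated SF cultures were sequenced on an Ion Proton. The authors mapped reads to mm10 with TopHat2 and then Bowtie2, counted them per gene with GenomicRanges and normalised them with DESeq through metaseqr, with versions not stated. The deposited normalised counts are a score, read counts divided by 1 factor per library and rounded, and the authors' length-scaled score gave gene lengths. GC content was deposited as a fraction. The authors' fold changes and p-values were not used, nor were 6 further columns on a log2 scale.

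The worth of 1 read was estimated from the spacing of low values (a method tested on simulated data), which gave the depths and the 3-read floor. Reads are approximate, so no count test was run. limma 3.58.1 in R 4.3.3 was fitted to log2(normalised count + 1), which understates changes of low genes, for the 12614 genes with at least 10 in at least 3 of 6 libraries, with empirical Bayes moderation along the mean trend. Tests were two-sided, with Benjamini-Hochberg adjustment over all genes tested; p-values over 3 libraries a group measure the spread between these libraries. An exact permutation test of 3 against 3 cannot go below 0.1 and was not used. Same-numbered libraries deviated together from their group means (correlations of 0.229, 0.24 and 0.201 over genes), so the numbers may pair the samples. All other pairs were negative, which subtracting the group means partly forces, so they add nothing to this. The fit as reported did not use the replicate numbers, and the replicate block was run as an alternative.

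Every tested receptor and the receptors above the floor are named with their values, and the rest in groups; some genes are not reported here. Pathway genes past the study thresholds are named, with up to 3 of each group by highest mean. Likewise up to 2 per group of comparison receptors and up to 3 markers per cell type are named. Fos, Csf1r, Cd14, Cx3cr1, Ptprc, Adgre1, Cspg4, Des and markers at 0 were named after their values were seen. The receptors and lists were chosen with earlier results of these data known. Annotation of coding segments is from GENCODE M21, in which 26 of the 37 receptors have the span the authors gave. Neighbouring genes were found from the authors' spans. In 33.2% of 4519 genes with a single 3′ UTR, the authors' length exceeds it by 1251 bases, the window used for neighbours. Alternatives were other pseudocounts, filters, scalings, weights, the replicate block, other floors and leaving out each library.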

Additional observations from a re-analysis of the deposited data

How the results depend on the processing

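The number of genes with an adjusted limma p under 0.05, 36 as reported, was 57 with a pseudocount of 5, 57 with no filter, 66 after quantile normalisation, 195 with weights per library and 263 with the replicate block. Leaving out 1 library gave 0 to 120 genes: 1, 0 and 0 without untreated replicates 1, 2 and 3, and 17, 6 and 120 without treated replicates 1, 2 and 3. The cause was not tested. Receptors past the study thresholds numbered 1 as reported, 3 of 19 with no filter (Adra2a, Drd4 and Htr7) and 2 of 7 with a filter of at least 3 in at least 3 libraries, chosen after seeing the data (Adra2a and Drd4), where 5.70%, 5.77% and 6.40% of all genes tested passed them in the same order. Drd4 and Htr7 then had unadjusted limma p-values of 0.027 and 0.0425 with no filter (adjusted 0.464 and 0.547). Receptors detected numbered 19 in place of 8 with a floor of 1 read, and 6 to 8 under the other floors and with each library left out. Pathway genes past the study thresholds, 5 as reported, numbered 3 to 6 with 1 library left out, 3 of them without untreated replicate 2 or 3. Of all genes tested, 4.57% to 8.11% passed the thresholds in the same fits. The log2 fold change of Adra1b ran from -0.44 to 0.14 with 1 library left out, turning positive without untreated replicate 2 or treated replicate 3, and that of Htr1b from -0.77 to 0.0197, turning positive without untreated replicate 3. Adra2a, Adra1d, Prkar1b, Plcb3 and Maob kept their direction and their side of the study thresholds under all 15 alternatives. The Plcb4 call was also lost with weights per library (0.78). The replicate block moved Adra2a, Prkar1b and Maob below an adjusted p of 0.05 and changed no other receptor's or pathway gene's call at that level or at the study thresholds. At 2.52 to 4.71 M reads per library, a 0 in a single library cannot tell transcripts under the floor of 0.637 to 1.19 reads per M from absent ones.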

Other observations

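The receptors for lipid mediators and nucleotides that served as a comparison were lower in treated SFs more often than higher, 11 of 14 tested against 3, where 49.9% of all tested genes were lower. An unadjusted limma p under 0.05 was reached by 2 of the 14, near the 10.9% of all genes, 0 had an adjusted one, and 0 passed the study thresholds. Ptger4, a Gs-coupled prostaglandin E2 receptor, held 131, 149 and 86 normalised counts in untreated and 73, 70 and 45 in treated replicates (log2 fold change -0.94 ± 0.317 SE, limma p 0.0123, adjusted 0.275). S1pr2, a sphingosine 1-phosphate receptor, held 642, 557 and 476 against 332, 371 and 333 (-0.68 ± 0.233 SE, limma p 0.0133, adjusted 0.281). In both genes the groups did not overlap, as in 16.5% of all genes tested. Of the adenosine and P2Y receptors, Adora2b held 30, 28 and 31 against 22, 7 and 25, also without overlap (limma p 0.103, adjusted 0.562). P2ry6 stood at 5 to 38 with overlapping groups.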
